A study of Mus musculus with 8 samples.

Results

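The subject of this report is a set of 34 genes of endothelial cells, the cells that line blood vessels, in the RNA-seq data of mouse sympathetic ganglia. The genes were chosen by symbol, with earlier results of these data known. All 34 were found in both deposited tables, which together list 14189 symbols. Sympathetic ganglia had been collected from *Isl1* mutant and control embryos at embryonic day 11.5 (E11.5) and 14.5 (E14.5), to learn which genes depend on the transcription factor ISL1 early and late in sympathetic neuron development. At E11.5, *Isl1* CKO embryos (*Wnt1-Cre* with 2 floxed *Isl1* alleles, labelled Isl1-/-) were compared with control embryos (*Wnt1-Cre* with *Isl1* +/+, labelled wild type), and both genotypes carried a *Rosa26-tdTomato* reporter. *Wnt1-Cre* acts in neural crest lineages, so that the endothelial cells of the trunk, which come from mesoderm, are not a target of this deletion. At E14.5, *Isl1* hypomorphic embryos (*Isl1* f-neo/f-neo, labelled as an Isl1 mutation) were compared with wildtype embryos. Their stated genotype holds no Cre, and the paper reports reduced ISL1 in their sympathetic neurons. Each group had 2 libraries, each from ganglia pooled from about 10 embryos or more, whose sex is not given in the sources used here. The authors combined the 2 libraries of a group into 1 FPKM value per gene (a level scaled to transcript length and to the number of mapped fragments), so the spread between libraries and the depth are not seen in these values, and the differences below are given without a test. Test results of the authors in the same tables were not used.

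Blood vessels grow into peripheral ganglia while neurons differentiate. Endothelial cells are built by ETS and SOXF transcription factors, respond to VEGF through KDR and its relatives, hold together through VE-cadherin and claudin 5, and acquire arterial, venous or lymphatic character partly through Notch signaling. The label of the gene set was checked on 3 defining markers. *Pecam1*, which encodes the junction protein CD31 (mm9, chr11:106515531-106611942), was listed at 12.5 FPKM in E11.5 control, 14.2 in E11.5 CKO, 15.7 in E14.5 wildtype, and 22.2 in E14.5 hypomorphic ganglia. *Cdh5*, the gene of VE-cadherin (mm9, chr8:106625525-106668402), had 11.1, 12.6, 20.04, and 28.5 FPKM in the same order. *Kdr*, the gene of the main VEGF receptor (mm9, chr5:76328852-76374483), had 9.37, 13.5, 11.4, and 15.1 FPKM. All 3 markers were therefore present in every group, and each was higher in the mutant than in its control as deposited. The tables cannot separate vessels inside the ganglia from vessels that came along in dissection.

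The facts of the whole series that touch these values are few. *Isl1* was listed at 133 FPKM in E11.5 control and 40.0 in CKO ganglia, and at 162 in E14.5 wildtype and 83.1 in hypomorphic ganglia. The FPKM values summed to between 440939 and 617263 per column, and the highest sum was that of E11.5 CKO ganglia, where genes of an erythroid list took 11.2% against 2.29% in control. At E14.5 the erythroid share was 1.26% in wildtype and 1.56% in hypomorphic ganglia. The E11.5 ganglia had been trimmed of tissue without fluorescence under a fluorescence microscope, and those of E14.5 had been dissected under a dissecting microscope.

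Endothelial genes were expressed at low to moderate levels. The median member had 4.66 FPKM in E11.5 control ganglia, above 27.2% of the genes of that table, and 5.34 FPKM in E14.5 wildtype ganglia, above 26.1%. In the mutants the median member had 6.69 FPKM (E11.5 CKO) and 7.42 FPKM (E14.5 hypomorph). *Ramp2*, which encodes a partner of the adrenomedullin receptor, was the highest member in both E11.5 columns (15.7 FPKM in control, 24.8 in CKO), and *Cdh5* was the highest in both E14.5 columns. At the lower end, *Sox17* was listed at 0.56 FPKM in E11.5 control ganglia, under the limit of 1 FPKM that at least 1 column of a table had to reach. Of the 34 genes, 14 were under 3 FPKM in E11.5 control and 12 in E14.5 wildtype ganglia.

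**Figure D1:**
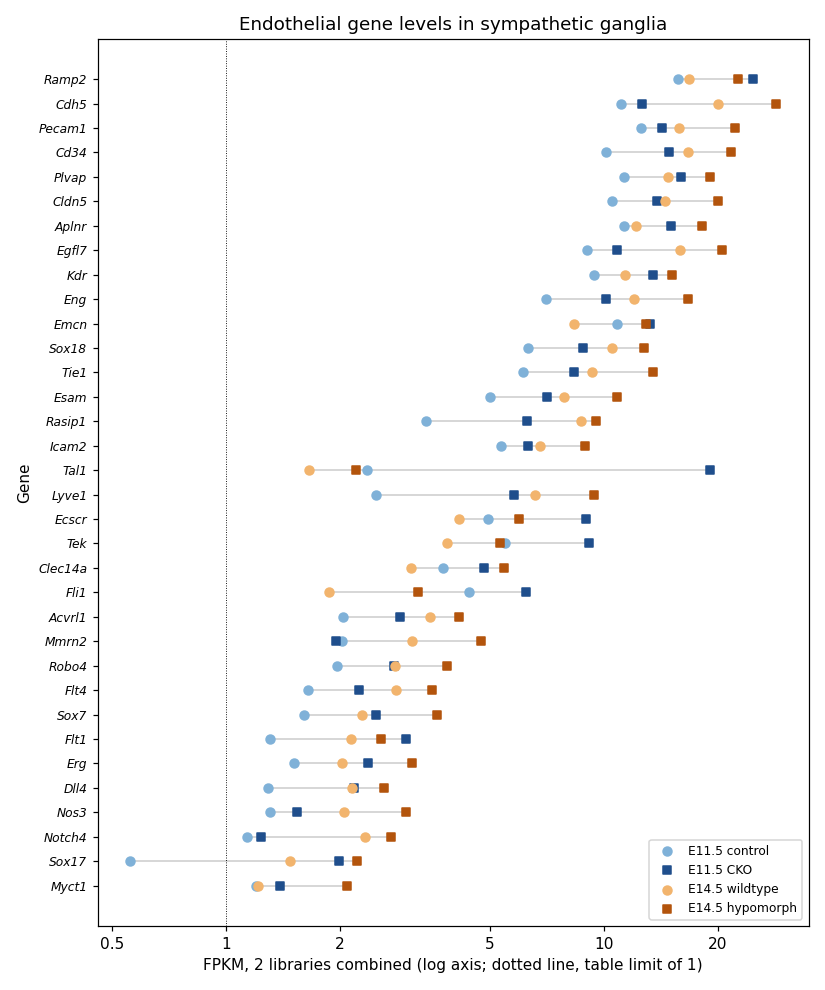
FPKM of the 34 endothelial genes (log axis), ordered by their mean, with circles for control or wildtype and squares for mutant ganglia, in blue for E11.5 and orange for E14.5. Each point is 1 value in which 2 libraries are combined, and no error can be drawn. At E14.5 the square lies to the right of the circle for all 34 genes, and *Tal1* in E11.5 CKO ganglia (19.0 FPKM) stands apart from its other 3 values.

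In E11.5 *Isl1* CKO ganglia, 33 of the 34 endothelial genes had a higher FPKM than in control ganglia, against 53.9% of all genes of the table. Changes are given as the log2 ratio of FPKM + 0.1, which understates the change of low genes. The median of the members was 0.49, a 1.40-fold difference, beside 0.05 for all 13506 genes. Of the members, 11 (32.4%) were at least 1.5-fold higher, against 18.9% of all genes, and 0 were at least 1.5-fold lower, against 12.9%. *Sox17* counts among the 33 and the 11, but reached the table limit of 1 FPKM only in the CKO column, which set its direction. In tissue of this kind, more endothelial cells and more RNA per endothelial cell cannot be told apart.

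The height of these ratios depended on the scaling. When both columns were rescaled to the same sum without erythroid and small RNA genes, the median of all genes moved to -0.19 and that of the members to 0.25, 27 members were higher, against 36.1% of all genes, and 6 were at least 1.5-fold higher, against 12.1%. *Pecam1* (0.18 as deposited and -0.06 rescaled) and *Cdh5* (0.19 and -0.05) changed sign, while *Kdr* stayed higher (0.52 and 0.28). *Icam2*, *Myct1*, *Notch4*, and *Nos3* also went from above 0 to below it, so that for these genes the directions given for E11.5 are those of the values as deposited. Under either scaling 33 of 34 members lay above the median gene. Rescaling shifts the ratios of all genes by nearly the same amount, so this position could hardly change. The summed FPKM of the 34 genes was 186 in control and 276 in CKO ganglia, a ratio of 1.48, and their share of all FPKM in the column was 1.14 times as high in CKO as in control ganglia.

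*Tal1* differed most between the E11.5 genotypes. This gene (mm9, chr4:114729031-114744360) encodes a transcription factor of blood and early endothelial cells, and was listed at 2.36 FPKM in control against 19.0 in CKO ganglia (log2 ratio 2.96, 7.76-fold), but at 1.66 and 2.21 in E14.5 wildtype and hypomorphic ganglia. Erythroid genes were higher in the same CKO column. Of 18 listed erythroid genes, 15 were in the table and 14 of these were at least 1.5-fold higher, against 18.9% of all genes. They were led in abundance by *Hba-x* (2572 and 53627 FPKM), and included *Gata1* (0.92 and 9.68 FPKM) and *Klf1* (1.99 and 18.5), both erythroid transcription factors. The summed level of the list was 10897 FPKM in control against 69147 in CKO ganglia. The embryonic globin gene *Hbb-y* was the exception, at 7552 FPKM in control and listed at 0 in CKO ganglia. Of 10 megakaryocyte and platelet genes, 7 were in the table, all 7 were higher, against 53.9% of all genes, and their sum was 23.2 and 84.6 FPKM. The part of blood cells in the ratio of *Tal1* was not tested. Without *Tal1*, the median of the remaining 33 members was 0.48.

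Markers of tissue outside the embryo also differed between the E11.5 columns. Of 14 listed genes of trophoblast and parietal yolk sac, 8 were in the table and 7 of these were higher in CKO ganglia, against 53.9% of all genes. Genes of this kind enter the table only if 1 column reaches the limit. *Prl8a2*, *Prl7a1*, and *Gkn2* reached it only in the CKO column, so that their direction was set by the limit. No median or sum is given for this list. *Prl8a2*, a placental member of the prolactin family, had 0.24 and 48.4 FPKM, and *Gkn2* had 0.07 and 24.9, while neither is listed in the E14.5 table. *Sparc* (129 and 369 FPKM) and *Hand1* (224 and 85.9), the most abundant of this list, are also expressed by mesenchyme and sympathetic neurons. Extraembryonic membranes hold vessels and blood of their own, and whether such tissue takes part in the higher endothelial values of the CKO column was not tested.

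The transcription factor genes include the SOXF factors of vessel formation and the ETS factors ERG and FLI1. All 6 were higher in CKO ganglia, against 53.9% of all genes, with a median of 0.61. *Sox17*, linked to arterial identity, had 0.56 FPKM in control against 1.99 in CKO ganglia (log2 ratio 1.67). Its low control value makes this ratio sensitive to the pseudocount (0.94 with a pseudocount of 1). The direction of *Sox17* was set by the table limit, which only its CKO value reached. *Sox7* had 1.61 and 2.49 FPKM (0.60), and *Sox18*, which has a role in lymphatic development, had 6.28 and 8.77 (0.48). Whether tissue from outside the embryo takes part in the ratios of *Sox17* and *Sox7* was not tested. *Erg* had 1.52 and 2.38 FPKM (0.62) and *Fli1* 4.38 and 6.21 (0.49).

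The receptor genes were also higher in CKO ganglia. *Flt1*, a VEGF receptor that can act as a trap for the ligand, had 1.31 FPKM in control against 3.0 in CKO ganglia (log2 ratio 1.13), the widest difference of the 3 VEGF receptors. *Flt4*, the receptor of VEGF-C, had 1.65 and 2.25 FPKM (0.43). Of the angiopoietin receptor *Tek* and its relative *Tie1*, *Tek* had 5.46 and 9.12 FPKM (0.73) and *Tie1* 6.09 and 8.33 (0.45). *Eng* and *Acvrl1*, which encode receptors of the TGF-beta family, had 7.03 and 10.1 FPKM (0.52) and 2.04 and 2.88 FPKM (0.48). In the Notch pathway, the ligand gene *Dll4* had 1.29 and 2.19 FPKM (0.72), while the Notch receptor gene *Notch4* differed little, at 1.14 and 1.24 (0.12).

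Of the 12 genes of cell contacts and the luminal surface, all were higher in CKO ganglia as deposited, against 53.9% of all genes. When rescaled without erythroid and small RNA genes, 8 of them were higher, against 36.1% of all genes. As deposited, 2 of the 12 were at least 1.5-fold higher, a share no higher than the 18.9% of all genes. *Lyve1*, the hyaluronan receptor of lymphatic endothelium that macrophages of embryos also express, had 2.50 FPKM in control against 5.79 in CKO ganglia (log2 ratio 1.18). Macrophage and leukocyte genes were higher in the same column, 14 of the 14 listed in the table, against 53.9% of all genes. Their summed level was 87.3 FPKM in control against 175 in CKO ganglia, and their part in the ratio of *Lyve1* was not tested. *Ecscr*, which encodes an endothelial surface protein, had 4.93 and 8.94 FPKM (0.84). The remaining 10, among them *Cldn5* (10.5 and 13.8 FPKM), *Plvap* of fenestrated vessels (11.3 and 15.9), and *Cd34* (10.1 and 14.9), had ratios from 0.18 to 0.55.

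Of the signaling genes, *Rasip1*, which is needed for vessel lumens to open, had 3.37 FPKM in control against 6.24 in CKO ganglia (log2 ratio 0.87), and *Ramp2* had a ratio of 0.66. The apelin receptor gene *Aplnr* had 11.3 and 15.0 FPKM (0.41), the guidance receptor gene *Robo4* 1.97 and 2.79 (0.48), and the gene of endothelial nitric oxide synthase, *Nos3*, 1.31 and 1.54 (0.22). The 2 genes of secreted matrix proteins were the nearest to no difference as a group. *Egfl7* had 8.99 and 10.8 FPKM (0.26), and *Mmrn2*, at 2.03 and 1.95 (-0.05), was the 1 member that was lower.

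In E14.5 *Isl1* hypomorphic ganglia, all 34 endothelial genes had a higher FPKM than in wildtype ganglia, against 50.7% of the 13413 genes of the table. Their log2 ratios lay in a narrow range, from 0.13 to 0.79 with a median of 0.46 (1.38-fold), beside a median of 0.003 and quartiles of -0.11 and 0.13 for all genes. All 34 were above the upper quartile, and 24.8% of all genes reached the lowest member. Of the members, 7 (20.6%) were at least 1.5-fold higher, against 2.89% of all genes, and 0 were at least 1.5-fold lower, against 2.12%. The sum of the 34 genes was 250 FPKM in wildtype against 342 in hypomorphic ganglia, a ratio of 1.37, and their share of all FPKM in the column was 1.39 times as high. All 34 were also higher under each of the 3 other scalings, and the median then ran from 0.45 to 0.49.

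*Clec14a*, which encodes a lectin of the endothelial surface, had the widest difference at E14.5, with 3.09 FPKM in wildtype against 5.44 in hypomorphic ganglia (log2 ratio 0.79). *Fli1* had 1.88 and 3.21 FPKM (0.75), *Myct1* 1.21 and 2.10 (0.74), *Sox7* 2.30 and 3.63 (0.64), and *Emcn*, the gene of the sialomucin endomucin found mainly on veins and capillaries, 8.31 and 12.9 (0.63). *Mmrn2* (3.11 and 4.74 FPKM, 0.59) and *Erg* (2.03 and 3.10, 0.59) lay just past 1.5-fold. The most abundant members had ratios near the median of the set, with *Pecam1* at 0.49, *Cdh5* at 0.51, and *Cldn5* at 0.46 (14.5 and 19.96 FPKM). *Cd34* had 0.38 (16.6 and 21.6), *Plvap* 0.37 (14.8 and 19.0), *Egfl7* 0.36 (15.9 and 20.4), and *Ramp2* 0.43 (16.8 and 22.6).

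The lowest ratios at E14.5 were those of *Rasip1* (8.68 FPKM in wildtype against 9.50 in hypomorphic ganglia, log2 ratio 0.13), *Notch4* (2.34 and 2.74, 0.22), *Acvrl1* (3.47 and 4.14, 0.25), and *Flt1* (2.15 and 2.58, 0.25). *Dll4*, the ligand gene that acts on Notch receptors of endothelium, was close to them at 2.15 and 2.63 FPKM (0.27). Of the 3 VEGF receptors, *Kdr* had the highest ratio (0.41) and *Flt4* had 0.31 (2.82 and 3.52 FPKM). *Tie1* (9.31 and 13.5 FPKM, 0.53), *Tek* (3.85 and 5.31, 0.45), and *Eng* (12.0 and 16.7, 0.48) lay between these genes and the leading members, as did *Lyve1* (6.56 and 9.39, 0.51), *Aplnr* (12.2 and 18.1, 0.57), and *Sox17* (1.48 and 2.23, 0.56).

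**Figure D2:**
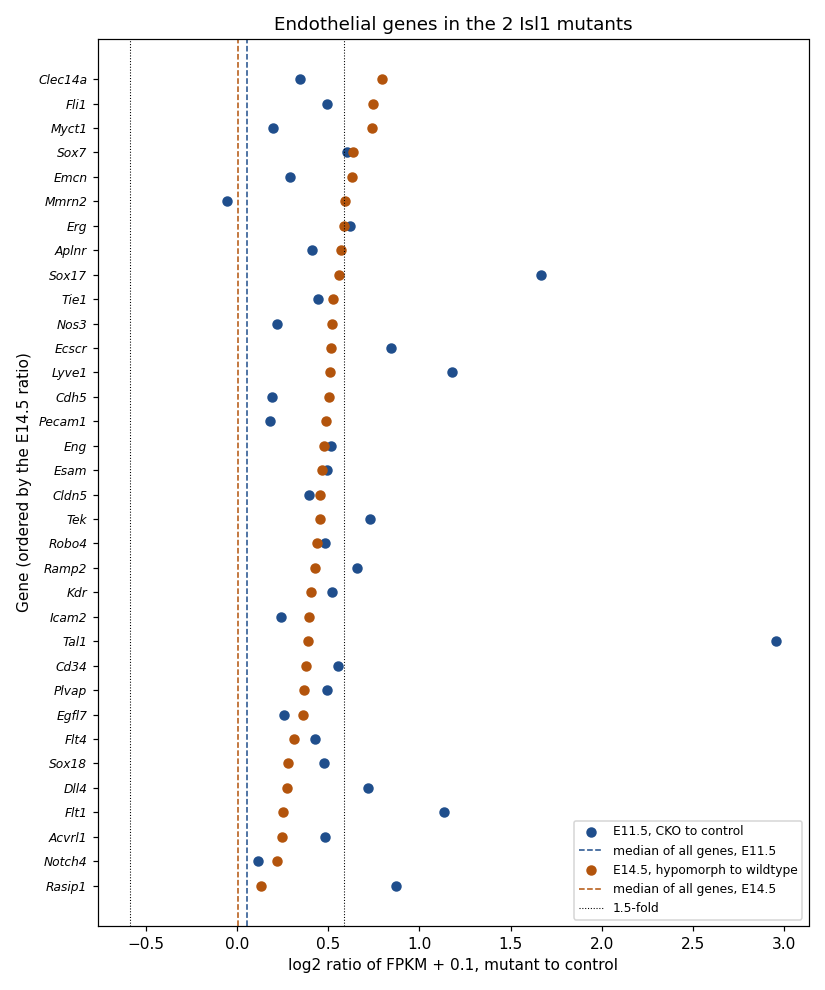
Log2 ratio of FPKM + 0.1, mutant to control, for each endothelial gene at E11.5 (blue) and E14.5 (orange), ordered by the E14.5 ratio. Dashed lines give the median of all genes at each stage (0.05 and 0.003) and dotted lines 1.5-fold, and the orange points span 0.13 to 0.79 while the blue points span -0.05 to 2.96.

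The 2 mutants share no control samples, so their ratios can be set side by side. The number of members higher in both was 33, against 27.4% of the 12727 genes found in both tables, and 2 of them, *Sox7* and *Erg*, were at least 1.5-fold higher in both, against 0.786% of these genes. Both lay just past the threshold at E11.5 (0.60 and 0.62), and the count of 2 depended on the processing. It was 0 with a pseudocount of 1 or after centring, 1 after either rescaling (*Sox17* without erythroid and small RNA genes, *Sox7* at equal upper quartiles), and 3 with a pseudocount of 0.01. The 33 include *Sox17*, whose E11.5 direction was set by the table limit. The order of the members differed. Across the 34 genes, Pearson's r between the E11.5 and the E14.5 ratio was -0.15 and Spearman's rho was -0.19, as a description of genes that share libraries. *Flt1* had 1.13 at E11.5 and 0.25 at E14.5, and *Rasip1* 0.87 and 0.13, whereas *Clec14a* had 0.35 and 0.79 and *Myct1* 0.20 and 0.74. The ratio was larger at E11.5 for 19 members and at E14.5 for 15. Whether any gene responded differently to the 2 genotypes was not tested.

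A further list of 37 endothelial genes was read in the same way. At E11.5, 26 of the 30 in the table were higher in CKO ganglia, against 53.9% of all genes, and 4 were lower, with a median log2 ratio of 0.59. Of the 30, 15 were at least 1.5-fold higher, against 18.9% of all genes. *Slco2a1*, a prostaglandin transporter gene (1.41 and 7.01 FPKM, 2.23), *Lmo2*, a partner of TAL1 (4.51 and 10.8, 1.24), and *Vwf*, the gene of von Willebrand factor (2.48 and 5.63, 1.15), had the highest ratios, and *Cyyr1* (1.33 and 0.66, -0.90) the lowest. The part of blood cells in the ratios of *Lmo2* and *Vwf* was not tested. *Pcdh12* reached the limit of 1 FPKM only in the CKO column and *Cyyr1* only in control, so their directions were set by the limit. At E14.5, 28 of 33 had a higher value in the hypomorph (median 0.37), against 50.7% of all genes. The 3 that were at least 1.5-fold higher, against 2.89% of all genes, were *Hhex* (1.13 and 1.98 FPKM, 0.76), *Gpihbp1* (3.60 and 5.95, 0.71), and *Calcrl*, the receptor that RAMP2 partners (2.55 and 4.19, 0.69). These genes and those named in the next paragraphs were picked from their lists after their values were seen, apart from the 2 most abundant of each list. The most abundant of this list, *Sh2d3c* and *Ets1*, had 17.2 and 14.7 FPKM in E11.5 control and 18.2 and 24.2 in CKO ganglia, and 25.7 and 7.94 in E14.5 wildtype and 24.7 and 10.9 in hypomorphic ganglia.

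Genes of ligands and co-receptors that act on vessels had medians closer to that of all genes than the endothelial genes did, without a test of the difference. At E11.5, 11 of the 18 listed in the table were higher, against 53.9% of all genes, and 7 lower (median 0.11). At E14.5, 13 were higher, against 50.7% of all genes, and 5 lower (median 0.16). The directions of *Figf* at E11.5 and *Angpt1* at E14.5, both higher, were set by the limit of 1 FPKM. *Tgfb1* (1.11 at E11.5 and 0.41 at E14.5), *Pdgfb* (0.37 and 0.42), and *Apln*, the ligand gene of APLNR (0.32 and 0.28), were higher in both mutants. *Vegfa*, the ligand gene of KDR and FLT1, was lower in both, and had 8.61 FPKM in E11.5 control and 6.51 in CKO ganglia (-0.40), and 24.2 in E14.5 wildtype and 19.3 in hypomorphic ganglia (-0.33). The VEGF co-receptor genes *Nrp1* and *Nrp2*, which sympathetic neurons also use as guidance receptors, were among the most abundant. *Nrp1* had 96.5 and 79.1 FPKM at E11.5 and 117 and 93.9 at E14.5, and *Nrp2* had 93.7 and 49.1 at E11.5 and 88.5 and 109 at E14.5. The chemokine gene *Cxcl12* had 90.6 and 126 FPKM at E11.5 (0.47) and 69.1 and 111 at E14.5 (0.68), the 1 gene of this list at least 1.5-fold higher in hypomorphic ganglia.

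Arterial, venous and barrier genes were considered beside the members. Of 8 genes listed as arterial in the tables, 6 were higher in CKO and 7 in hypomorphic ganglia, against 53.9% and 50.7% of all genes, with medians of 0.38 and 0.13. At E11.5, *Hey2* (4.91 and 8.86 FPKM, 0.84) was the 1 gene at least 1.5-fold higher. *Unc5b* (7.35 and 4.10, -0.83) was the 1 at least 1.5-fold lower. Which cells these values come from was not tested. The most abundant were *Efnb2* (-0.24 at E11.5 and 0.19 at E14.5) and *Hey1* (0.46 and 0.02). The gap junction genes *Gja4* and *Gja5* had ratios of 0.10 and 0.58 at E11.5 and of 0.34 and 0.01 at E14.5. The venous genes *Nr2f2* (0.57 and 0.20) and *Ephb4* (0.69 and 0.28) were higher in both mutants. *Prox1*, a marker of lymphatic endothelium that sympathetic neuroblasts also express, had 32.6 FPKM in E11.5 control and 6.60 in CKO ganglia, and 24.8 and 37.7 at E14.5, so that it was lower in CKO ganglia where *Lyve1* and *Flt4* were higher. *Pdpn*, the gene of podoplanin, which lymphatic endothelium shares with other cells, was higher there, at 4.38 and 20.2 FPKM (2.18), and had 9.56 and 10.1 FPKM at E14.5 (0.07). Of barrier and transport genes, 4 of 5 were at least 1.5-fold higher in CKO ganglia, against 18.9% of all genes. Among them was the glucose transporter gene *Slc2a1* (18.6 and 34.8 FPKM) but not the amino acid transporter gene *Slc7a5* (20.6 and 19.0). *Mfsd2a*, also among the 4, reached the limit of 1 FPKM only in the CKO column, so that its direction was set by the limit. In hypomorphic ganglia 0 of 4 were at least 1.5-fold higher, against 2.89% of all genes, while *Abcb1a*, *Ocln*, and *Slco1c1* were listed in neither table.

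Other cell types of the ganglia differed between genotypes as well. At E11.5, the median log2 ratio was 0.56 for 13 mural genes (pericytes and smooth muscle), 0.75 for 14 mesenchyme genes, 1.19 for 7 glial genes, and 1.17 for 14 macrophage and leukocyte genes, beside 0.49 for the endothelial members and -0.44 for 12 genes of sympathetic neurons. At E14.5, the medians were 0.22 for mural, 0.19 for mesenchyme, 0.11 for glial, 0.26 for macrophage and leukocyte, 0.38 for erythroid, and 0.72 for 6 megakaryocyte and platelet genes, beside 0.46 for the endothelial members and -0.36 for sympathetic neurons. The endothelial median was thus the lowest of these non-neuronal lists at E11.5 and the second highest at E14.5, as a description without a test. The summed level of the neuron list was 3617 FPKM in E11.5 control and 3166 in CKO ganglia, and 7154 in E14.5 wildtype and 5754 in hypomorphic ganglia. Whether the share of neurons in the RNA takes part in the higher endothelial values was not tested. Of the 2 most abundant genes of each list, *Mcam* and *Acta2* (mural) had log2 ratios of 0.48 and 0.98 at E11.5 and of -0.23 and 0.22 at E14.5. *Col1a1* and *Col1a2* (mesenchyme) had 0.79 and 0.87 and then 0.13 and 0.16, and *Fabp7* and *Sox10* (glia) had 1.19 and 1.01 and then 0.20 and 0.08. *Coro1a* and *Tyrobp* (macrophage and leukocyte) had 0.10 and 1.01 and then -0.31 and 0.22. *Pf4* and *Gp1bb* (megakaryocyte and platelet) had 2.25 and 0.24 and then 0.70 and -0.48, and *Tubb3* and *Gap43* (sympathetic neurons) had 0.22 and -0.46 and then -0.40 and -0.36. These abundant genes did not all follow the median of their list. Among mural genes, *Rgs5*, a pericyte marker, went in opposite directions, with 20.2 and 6.30 FPKM at E11.5 (-1.67) and 14.1 and 31.0 at E14.5 (1.13), while *Pdgfrb* was higher in both mutants (0.52 and 0.49).

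**Figure D3:**
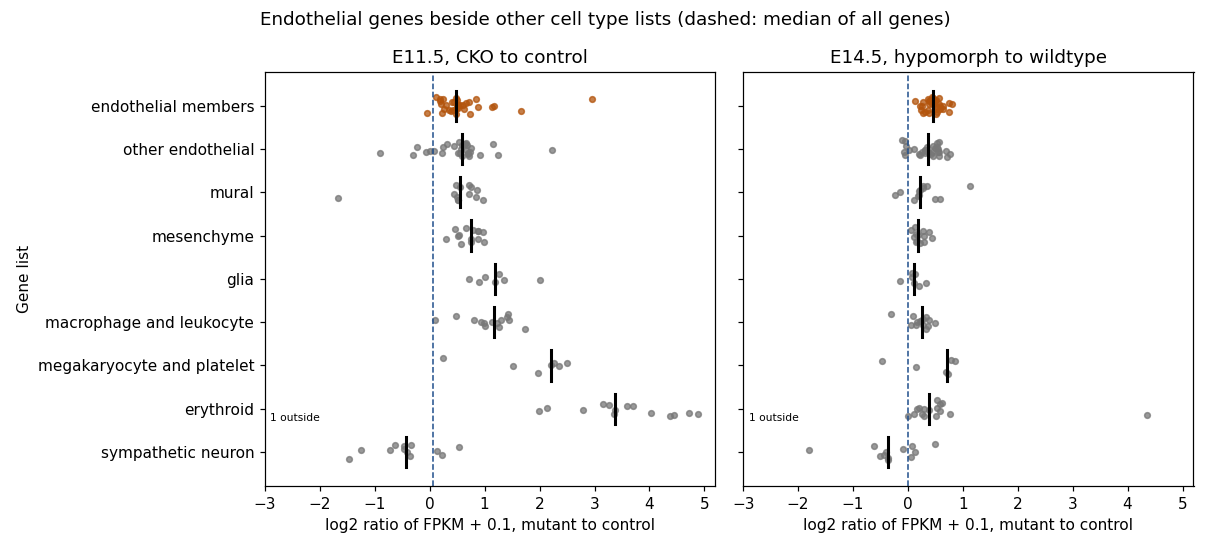
Log2 ratio of FPKM + 0.1 (mutant to control) of each gene of the endothelial set and of 8 other lists, at E11.5 on the left and E14.5 on the right, with a black bar at each list's median and a dashed line at the median of all genes. Points outside the axis are counted as text. The endothelial medians are 0.49 and 0.46, and the neuron medians -0.44 and -0.36.

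Between the 2 control columns, E14.5 wildtype and E11.5 control ganglia, the endothelial genes had a median log2 ratio of 0.54 (1.45-fold), beside 0.24 for the 12707 genes that both tables list once. The tables were normalized separately and the ganglia dissected differently, so that stage, genotype background and dissection cannot be told apart. Of the members, 28 were higher at E14.5, against 64.1% of all genes, 17 (50%) by at least 1.5-fold, against 29.7%, and 1 was at least 1.5-fold lower, against 12.7%. Relative to the median gene, 25 members were higher and 9 lower. After centring on it, 5 were at least 1.5-fold higher, against 19.2% of all genes, and 4 were lower by as much, against 19.5%, so that neither share of the 34 members exceeded that of all genes.

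*Lyve1* had the highest ratio, going from 2.50 FPKM in E11.5 control to 6.56 in E14.5 wildtype ganglia (log2 ratio 1.36). *Rasip1* went from 3.37 to 8.68 FPKM (1.34), *Sox17* from 0.56 to 1.48 (1.26), and *Notch4* from 1.14 to 2.34 (0.98). *Cdh5* had a ratio of 0.85, *Egfl7* of 0.81 (8.99 and 15.9 FPKM), *Eng* of 0.76, and *Acvrl1* of 0.74, whereas *Pecam1* (0.33) and *Kdr* (0.27) lay near the median of all genes. In the other direction, *Fli1* went from 4.38 to 1.88 FPKM (-1.18), *Tek* from 5.46 to 3.85 (-0.49), *Tal1* from 2.36 to 1.66 (-0.48), and *Emcn* from 10.8 to 8.31 (-0.38). *Clec14a* (-0.27) and *Ecscr* (-0.25) were lower too. *Myct1* (0.01), *Aplnr* (0.11), and *Ramp2* (0.10) were near 0 as deposited and below the median gene when centred.

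**Figure D4:**
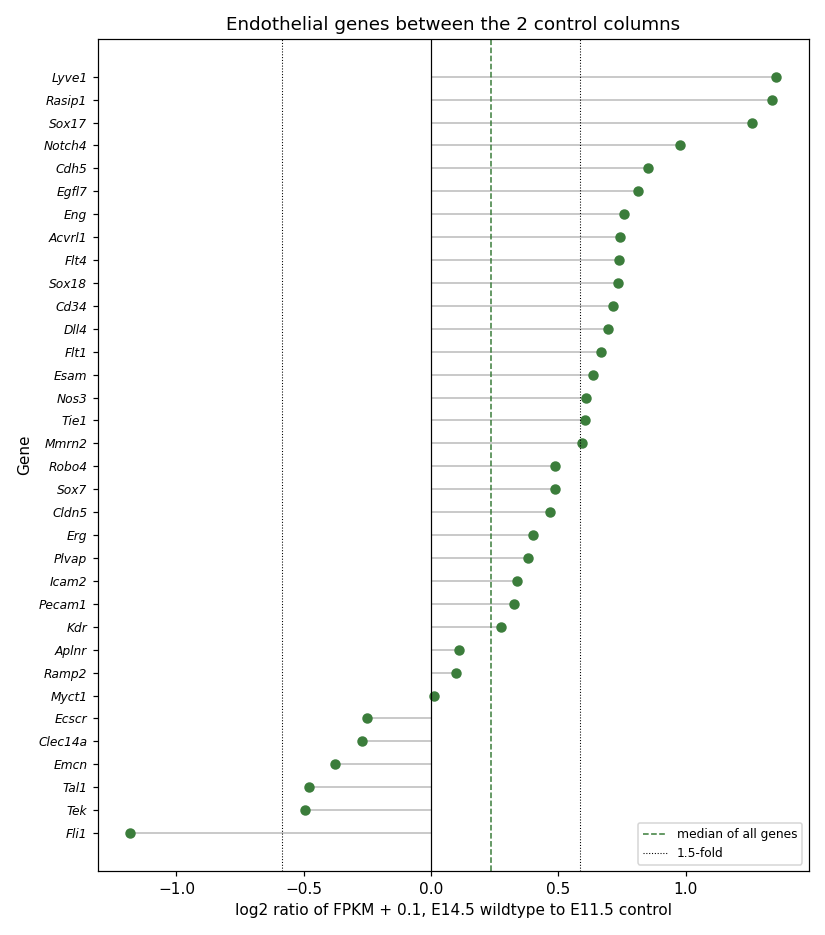
Log2 ratio of FPKM + 0.1, E14.5 wildtype to E11.5 control ganglia, for the 34 endothelial genes, with the median of all genes (0.24, dashed) and 1.5-fold (dotted). The ratios run from -1.18 for *Fli1* to 1.36 for *Lyve1*, and 6 genes are below 0.

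Set beside this, the 8 arterial genes in both tables were all higher in E14.5 wildtype than in E11.5 control ganglia, against 64.1% of all genes, and had a median of 0.56, beside 0.24 for all genes. Of these, 4 were above 1.5-fold, with *Hey2* highest (4.91 and 19.6 FPKM, 1.97), while *Hey1* (0.02), *Unc5b* (0.06), and *Efnb2* (0.15) lay below the median gene. *Vegfa* went from 8.61 to 24.2 FPKM (1.48), *Angpt1*, the ligand gene of TEK, from 2.88 to 0.999 (-1.44), and *Mfsd2a*, a lipid transporter gene of barrier endothelium, from 0.56 to 4.85 (2.90). Besides *Fli1*, the ETS factor genes *Ets1* (-0.88) and *Elk3* (-0.76), both also found in mesenchyme, were lower at E14.5, while *Erg* was higher (0.40, 1.52 and 2.03 FPKM). In this comparison, the endothelial median of 0.54 lay between those of mural (1.09), mesenchyme (0.92), and sympathetic neuron genes (0.89) on one side and those of the other endothelial genes (0.43), macrophage and leukocyte (0.36), glial (0.20), megakaryocyte and platelet (0.07), and erythroid genes (-0.41) on the other.

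Since ETS factors were members and most members were higher in both mutants, the start regions of the members were read for their motif. RefSeq promoters of GRCm38.p6, from 250 bases before to 50 after the gene start, matched 18 of the 34 genes. Each motif was searched on both strands. CAGGAAG, a sequence of the ETS type, was found in 6 of the 18 and in 13.0% of all 27025 promoters of the same length. The shorter AGGAAG, which CAGGAAG contains, was found in 10 of 18 and in 35.1% of all, CCGGAAGT in 0 of 18 and 4.0%, and AACAAT, of the SOX type, in 2 of 18 and 10.9%. A match is a description of these letters and not a binding site. The matches of CAGGAAG with 11 bases on either side inside the window are shown, without that of *Notch4*, which lies too near the end of its window, 5′ to 3′ on the strand with the motif, which is in capitals:
*Cd34* (chr1:194938668-194938696, minus strand): tttaagtgtggCAGGAAGccactgtgtac
*Egfl7* (chr2:26580982-26581010, plus strand): tgggagacaaaCAGGAAGgccatctctct
*Egfl7* (chr2:26581023-26581051, minus strand): cagctgcacctCAGGAAGgaaagaccagc
*Emcn* (chr3:137340893-137340921, minus strand): tgggatttgaaCAGGAAGagacccttctt
*Rasip1* (chr7:45627435-45627463, minus strand): aggaaacccggCAGGAAGagcggggaggg
*Robo4* (chr9:37401911-37401939, plus strand): tgagggccaggCAGGAAGcatccgtttcc
The 6 matches lie 49 to 174 bases before the gene start. Of the 5 genes, *Rasip1* had the highest ratio at E11.5 (0.87) and the lowest at E14.5 (0.13), and *Emcn* had 0.29 and 0.63.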

How the data were processed

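The 8 samples form 4 groups of 2 libraries, from polyA RNA. The authors deposited FPKM values. Per their methods, paired-end reads were mapped with TopHat to mm9 and levels were estimated with cuffdiff, with 1 column for the 2 libraries of a group, and both tables hold only genes that reach an FPKM of 1 in a column. The submitters' processing notes name TopHat 1.3.1, Cuffdiff 1.3.0 and the fly build dm3 instead, and the tables hold mouse symbols. The tables also hold the authors' own log2 fold changes and p-values, which were not used. Read numbers are not given in the sources used here, so depth and precision are unknown.

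Log2 ratios of FPKM + 0.1 and calls at 1.5-fold were computed with Python 3.11.15, numpy 2.4.6 and pandas 2.3.3, and were tested on simulated data. The members, lists and groups by role were chosen with earlier results of these data known. Named in full were the 3 markers, the 10 members with the highest mean FPKM, and the 4 members highest and 4 lowest in each comparison, and of other lists the 2 most abundant genes and *Isl1*. Other genes named from those lists were picked after their values were seen. Alternatives were other pseudocounts, an FPKM minimum of 5, 3 scalings, other fold thresholds, and the members without 10 that blood cells also express. Removing *Tal1* was chosen after the data were seen. Figures were drawn with matplotlib 3.10.9.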

Additional observations from a re-analysis of the deposited data

Results flagged for a closer look

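*Mmrn2*, the gene of the matrix protein multimerin 2, was the 1 member whose ratio had opposite signs in the 2 mutants, -0.05 at E11.5 and 0.59 at E14.5. The difference was not tested.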

How the results depend on the processing

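No paired analysis was possible because the 2 libraries of a group share 1 column, and for the same reason no library could be left out. The median of the members moved by more than 0.1 with rescaling without erythroid and small RNA genes, to 0.25 at E11.5 and 0.70 between the control columns, where it was also 0.42 with a pseudocount of 1, 0.30 when centred and 0.41 at equal upper quartiles. The count of members at least 1.5-fold higher in E11.5 CKO ganglia was 11 of 34. It was 6 of the 21 left by an FPKM minimum of 5, and 7 of the 24 left without blood-expressed members. With all 34 it was 6 when rescaled without erythroid genes, against 12.1% of all genes, 4 at a threshold of 2 and 26 at 1.2. At E14.5 (7 of 34) it was 2 of the 20 left by the FPKM minimum. With all 34 it was 1 with a pseudocount of 1, 0 at a threshold of 2 and 30 at 1.2. Between the control columns, 17 of 34 were higher and 1 lower. Of the 18 left by the FPKM minimum, 9 were higher and 0 lower, and of the 24 without blood-expressed members 0 were lower. With all 34 it was 9 higher with a pseudocount of 1, 5 and 4 when centred (19.2% and 19.5% of all genes), and 10 and 3 at equal upper quartiles. It was 3 higher at a threshold of 2 and 5 lower at 1.2. For the other alternatives the share of all genes was not computed. Those counts show only how the calls moved, without a comparison to all genes. Single genes moved by more than 0.58 in 2 cases, both *Sox17* with a pseudocount of 1 (0.94 at E11.5 and 0.67 between the control columns), and by less in 567. Of all members, 0 were 1.5-fold lower in a mutant under any alternative.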
